A study of Mus musculus with 10 samples.

Results

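The activity-induced immediate early genes are a small group of genes that neurons transcribe within minutes of synaptic stimulation, and 10 of them are described here, *Fos*, *Fosb*, *Egr1*, *Egr2*, *Egr4*, *Npas4*, *Nr4a1*, *Arc*, *Bdnf* and *Homer1*. They are chosen by symbol, with no measured value in the rule, and all 10 were found among the 54532 genes of the count tables. The RNA came from nuclei carrying NeuN, the neuronal protein encoded by *Rbfox3*, that were sorted from adult C57BL/6J mouse brains, and poly(A) RNA was sequenced in 10 libraries. Control libraries 1 to 3 were from Mphosph8 fl/fl mice and control libraries 4 and 5 from Morc2a fl/fl mice, all without *Nestin*-Cre. The 3 *Mphosph8*Δ/Δn libraries were Mphosph8 fl/fl with *Nestin*-Cre, and the 2 *Morc2a*Δ/Δn libraries were Morc2a fl/fl with *Nestin*-Cre. *Mphosph8* encodes MPP8, a reader of methylated histone H3 in the HUSH complex, and *Morc2a* encodes an ATPase that works with HUSH in gene silencing. *Nestin*-Cre removes a floxed exon in neural progenitors and so in the neurons, and also in most glia, that arise from them. No control carried Cre, so an effect of the transgene itself cannot be told apart from that of either deletion. No label gives a treatment, a time of day or a date for any library, and none states that each library was a single mouse, so the p-values measure the spread between these libraries.

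Neuronal firing lets calcium enter through NMDA-type glutamate receptors and L-type calcium channels, and the kinases this activates phosphorylate CREB and the SRF partner ELK1, which already sit at the promoters of the immediate early genes. Their transcripts are short-lived, so their level at one moment follows the recent activity of the cells, and nuclei hold the newest of them. Most of the 10 genes encode transcription factors that carry the response to later genes, and *Arc*, *Bdnf* and *Homer1* encode proteins that act at the synapse.

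The factors that switch on these genes act in part through elements close to their start sites, and the promoters of 6 of them are shown for that reason. RefSeq promoters on GRCm38.p6, from 250 bases before the start site to 50 bases after it, were matched for 8 of the 10 genes, 19 promoters in all, since some genes have several starts. The core of the cyclic AMP response element, TGACG on either strand, was present in 10 of the 19, 3 of them overlapping windows of *Egr2* that hold the same sites, against 20.8% of all 32851 promoters of that length. Each of the 8 genes had it in at least 1 promoter, as did 23.0% of all 27025 genes, and a gene with several starts has more chances to hold it. The complete palindrome TGACGTCA, which contains the core, was in 0 of the 19 and in 1.79% of all promoters. The CArG box, bound by SRF, was found on either strand in 4 of the 19, all of *Egr2* and 3 of them those overlapping windows, and in 1.63% of all promoters. TGANTCA, the AP-1 site, was found on either strand in 1 promoter of *Bdnf* and in 7.81% of all promoters, and TATAAA, searched on the gene's own strand, in that of *Fos* and in 8.32% of all. Each sequence is written 5′ to 3′ along its gene, with capitals on the CRE core, which reads CGTCA where it lies on the opposite strand, and in *Egr2* also on the CArG box.
Fos, chr12:85473640-85473939, plus strand: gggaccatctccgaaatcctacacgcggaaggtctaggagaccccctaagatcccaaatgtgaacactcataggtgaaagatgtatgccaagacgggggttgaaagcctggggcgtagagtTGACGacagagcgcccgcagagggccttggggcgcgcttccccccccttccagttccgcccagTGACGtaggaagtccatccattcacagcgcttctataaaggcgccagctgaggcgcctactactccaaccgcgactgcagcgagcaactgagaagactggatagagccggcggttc
Egr2, chr10:67537619-67537918, plus strand: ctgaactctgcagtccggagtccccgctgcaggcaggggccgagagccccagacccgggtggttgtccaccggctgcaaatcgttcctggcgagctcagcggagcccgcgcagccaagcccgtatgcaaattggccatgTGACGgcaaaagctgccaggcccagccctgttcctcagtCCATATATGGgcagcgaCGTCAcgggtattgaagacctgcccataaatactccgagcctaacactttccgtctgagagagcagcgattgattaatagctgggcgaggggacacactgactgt
Egr4, chr6:85513540-85513839, minus strand: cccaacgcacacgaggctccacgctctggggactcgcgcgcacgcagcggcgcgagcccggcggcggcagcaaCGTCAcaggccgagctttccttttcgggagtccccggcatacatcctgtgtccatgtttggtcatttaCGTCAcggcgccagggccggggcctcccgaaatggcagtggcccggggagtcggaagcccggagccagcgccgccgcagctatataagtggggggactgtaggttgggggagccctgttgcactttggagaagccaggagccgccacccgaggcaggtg
Npas4, chr19:4989922-4990221, minus strand: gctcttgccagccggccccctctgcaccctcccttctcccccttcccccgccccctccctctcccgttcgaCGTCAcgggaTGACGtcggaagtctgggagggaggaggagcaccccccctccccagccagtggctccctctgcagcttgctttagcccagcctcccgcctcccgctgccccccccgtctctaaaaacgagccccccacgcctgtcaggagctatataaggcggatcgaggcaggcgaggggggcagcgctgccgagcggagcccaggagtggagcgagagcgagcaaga
Nr4a1, chr15:101266596-101266895, plus strand: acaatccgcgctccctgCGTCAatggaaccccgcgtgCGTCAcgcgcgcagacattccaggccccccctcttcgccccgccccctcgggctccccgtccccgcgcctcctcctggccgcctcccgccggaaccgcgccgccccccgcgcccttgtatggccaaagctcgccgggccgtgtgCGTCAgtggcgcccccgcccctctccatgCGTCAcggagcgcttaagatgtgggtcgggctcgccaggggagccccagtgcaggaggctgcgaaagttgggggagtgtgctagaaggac
Homer1, chr13:93303507-93303806, plus strand: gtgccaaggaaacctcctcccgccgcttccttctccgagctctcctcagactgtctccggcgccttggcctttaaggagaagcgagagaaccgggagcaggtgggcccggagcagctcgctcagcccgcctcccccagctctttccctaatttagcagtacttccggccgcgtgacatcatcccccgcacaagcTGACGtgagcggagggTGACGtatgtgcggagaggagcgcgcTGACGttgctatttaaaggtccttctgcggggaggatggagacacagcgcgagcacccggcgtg
The core lay 66 and 129 bases before the start of *Fos*, 169 and 179 bases before that of *Npas4*, and at 4 places in the promoter of *Nr4a1*. *Homer1*, whose level varied least over the controls, had 3 cores within 56 bases of its start.

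Depth ranged from 6686038 counts in control 5 to 10764555 in control 3, with a median of 9665875. Control 3 was also the highest library for 7 of the 10 genes and control 5 the lowest for 3. The part of depth in these levels was not tested. Normalized levels are given as CPM, counts scaled to the same library total, after scaling by the trimmed mean of M-values (TMM), whose factors were between 0.9817 and 1.021. *Rbfox3* was present in every library, at 232 ± 49.4 CPM (SD, n = 5) in the controls, 272 ± 52.7 (n = 3) in *Mphosph8*Δ/Δn and 265 ± 20.1 (n = 2) in *Morc2a*Δ/Δn. The oligodendrocyte markers were also present, with *Mbp*, a myelin protein, at 487 CPM on average over the 10 libraries, and of the 7 endothelial markers 1, *Vtn*, had counts in all 10 libraries, the 6 others having none in at least 1. The targeted genes are a limited check of the labels, because counts over a whole gene hold the exons that remain. *Mphosph8* was at 37.2, 36.0 and 18.8 CPM in the 3 *Mphosph8*Δ/Δn libraries and between 32.2 and 49.0 CPM in the controls. *Morc2a* was at 215 and 223 CPM in the *Morc2a*Δ/Δn libraries and between 122 and 163 CPM in the controls, so its counts were above, not below, every control. With adjusted p = 0.967 for *Mphosph8* and 0.0916 for *Morc2a* in their own knockouts (edgeR's quasi-likelihood test, Benjamini-Hochberg adjustment), neither deletion was visible as a lower count over the whole gene.

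Among themselves, the 10 genes covered a wide range of levels. Divided by the length of their merged exons, control levels were highest for *Arc*, at 125 ± 62.2 CPM per kb (SD, n = 5), followed by *Egr1* at 47.5 ± 13.3 and *Fos* at 39.4 ± 16.0 CPM per kb. *Homer1* was at 29.9 ± 2.93 CPM per kb, *Egr4* at 16.1 ± 7.52, *Npas4* at 9.24 ± 3.76 and *Nr4a1* at 9.01 ± 4.6 CPM per kb. The lowest were *Bdnf* at 6.64 ± 1.45, *Egr2* at 2.81 ± 0.99 and *Fosb* at 2.5 ± 1.78 CPM per kb. Neighbours in this order overlapped over the 5 control libraries except at 2 steps, between *Homer1* (lowest 26.8) and *Egr4* (highest 24.2) and between *Bdnf* (lowest 4.61) and *Egr2* (highest 4.02 CPM per kb). All 10 passed the filter on low counts, with 18 counts of *Egr2* in *Mphosph8*Δ/Δn library 3 as the smallest number behind any of their values. 8 of the 10 genes varied more between controls than the median gene: the coefficient of variation was 71.5% for *Fosb*, 51.0% for *Nr4a1* and 49.8% for *Arc*, against a median of 24.6% over all 18573 genes tested. *Bdnf*, at 21.9%, and *Homer1*, at 9.78%, were below that median. These values include the difference between the floxed lines. Over the 3 controls of the *Mphosph8* line alone, the coefficient of variation was 46.3% for *Fosb*, 32.7% for *Npas4*, 32.45% for *Egr4* and 28.1% for *Fos*. It was 25.65% for *Arc*, 24.0% for *Egr2*, 15.5% for *Bdnf*, 13.1% for *Egr1*, 11.8% for *Nr4a1* and 11.5% for *Homer1*. The median over all genes for these 3 libraries is not given here.

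*Arc*, whose product carries RNA between neurons and governs the removal of AMPA receptors from synapses, was at 376, 496 and 633 CPM in the controls of the *Mphosph8* line and at 249 and 156 CPM in those of the *Morc2a* line. In *Mphosph8*Δ/Δn it was at 292, 247 and 155 CPM, and the *Morc2a*Δ/Δn libraries were at 248 and 342 CPM. The 3 controls of the *Mphosph8* line were thus the 3 highest libraries for *Arc*, and the 2 other controls lay among the knockouts.

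*Egr1*, a zinc finger transcription factor of the EGR family on chromosome 18, was at 220, 252 and 286 CPM in controls 1 to 3, and again these were its 3 highest libraries. Controls 4 and 5 were at 155 and 151 CPM, *Mphosph8*Δ/Δn libraries at 170, 149 and 114 CPM, and *Morc2a*Δ/Δn libraries at 138 and 108 CPM. *Nr4a1*, an orphan nuclear receptor, had the same top libraries, at 37.2, 45.1 and 46.7 CPM, whereas controls 4 and 5, at 17.3 and 11.7 CPM, were 2 of its 3 lowest. Its *Mphosph8*Δ/Δn libraries were at 29.3, 30.6 and 15.1 CPM and its *Morc2a*Δ/Δn libraries at 18.9 and 28.5 CPM.

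*Fos*, which pairs with JUN proteins to form the AP-1 factor, was at 76.6, 130 and 133 CPM in controls 1 to 3 and at 76.2 and 46.8 CPM in controls 4 and 5. In *Mphosph8*Δ/Δn it was at 80.0, 72.4 and 38.6 CPM, and the *Morc2a*Δ/Δn libraries were at 57.0 and 59.7 CPM, so that only controls 2 and 3 stood clear of all the other libraries. *Fosb*, another partner of JUN proteins and the source of the long-lived ΔFosB, spanned 9.67-fold, from 3.42 CPM in control 5 to 33.0 CPM in control 3. *Egr2*, which is also the master regulator of myelination in Schwann cells, was highest in control 2, at 13.7 CPM, and lowest in *Mphosph8*Δ/Δn library 3, at 1.86 CPM. For *Fosb* and *Egr2* too, controls 1 to 3 were the 3 highest libraries. Control 1 was the lowest of them, at 14.2 CPM for *Fosb* and 8.40 CPM for *Egr2*. Next came *Mphosph8*Δ/Δn library 2, at 12.1 and 8.12 CPM. *Egr4*, the remaining EGR factor of the group, was at 27.1, 52.0 and 50.7 CPM in controls 1 to 3 and at 27.9 and 15.2 CPM in controls 4 and 5. The *Mphosph8*Δ/Δn libraries were at 22.5, 36.4 and 19.3 CPM and the 2 *Morc2a* knockouts at 18.0 and 28.4 CPM, so all groups of *Egr4* overlapped. *Npas4*, a factor induced by calcium entry almost only in neurons, was at 34.4, 39.6 and 62.3 CPM in controls 1 to 3 and at 35.6 and 19.2 CPM in controls 4 and 5. Its *Mphosph8*Δ/Δn libraries were at 18.7, 33.6 and 22.8 CPM and the 2 *Morc2a* knockouts at 28.2 and 45.3 CPM. Its second highest library was *Morc2a*Δ/Δn library 2, unlike the other genes.

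*Bdnf* and *Homer1* had another order of libraries. *Bdnf*, the neurotrophin that signals through TrkB, was at 40.6, 50.0 and 37.3 CPM in controls 1 to 3 and at 50.0 and 28.7 CPM in controls 4 and 5. It was at 32.1, 36.1 and 32.0 CPM in *Mphosph8*Δ/Δn, and the 2 *Morc2a* knockouts, at 28.2 and 27.9 CPM, were below every control. In the annotation, 14.4% of the exonic bases of *Bdnf* are shared with *Gm45346* on the opposite strand, so some of its reads may belong to that gene. *Homer1*, a scaffold of the postsynaptic density, was between 320 and 395 CPM in the 5 controls and at 212 CPM in its lowest library, *Mphosph8*Δ/Δn library 3. Activity induces a short *Homer1* transcript that ends within the gene, and counts over all its exons cannot separate that form from the long ones.

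In the annotation of GRCm38, *Arc* lies on the minus strand of chromosome 15, from 74669083 to 74672570, with its reads counted over 3 blocks of exons and 3057 exonic bases. *Fosb* lies on the minus strand of chromosome 7, from 19302696 to 19310051, and *Bdnf* on the plus strand of chromosome 2, from 109674700 to 109727007. Apart from *Bdnf*, none of the 10 shares exonic bases with another annotated gene.

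**Figure D1:**
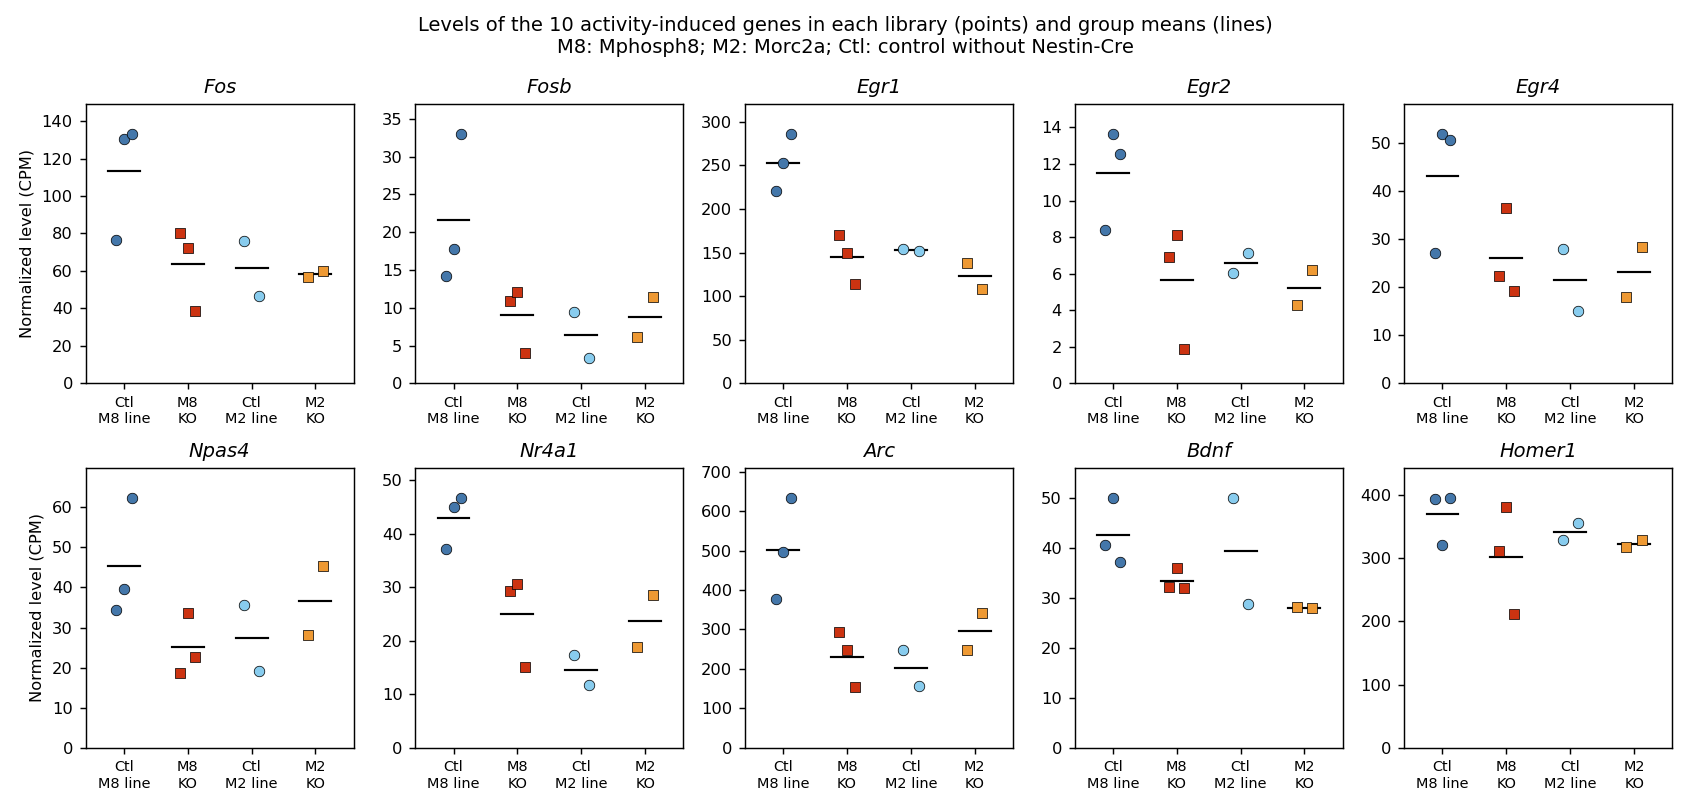
Level of each of the 10 genes in every library (points, CPM on a linear axis from 0) and the mean of each group (line), for controls of the *Mphosph8* line (3), *Mphosph8*Δ/Δn (3), controls of the *Morc2a* line (2) and *Morc2a*Δ/Δn (2). For *Fosb*, *Egr1*, *Egr2*, *Arc* and *Nr4a1* the 3 controls of the *Mphosph8* line lie above all other libraries, and for *Egr4* every group overlaps the others.

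Most of the genes varied together over the libraries. On the log2 scale, each gene's level over the 10 libraries correlated with the mean of the 9 others at r = 0.95 for *Fos*, 0.95 for *Fosb*, 0.92 for *Arc* and 0.89 for *Egr4*, and at 0.55 for *Bdnf* and 0.58 for *Homer1*. The 10 points of each correlation share their library, its depth and its normalization, and the differences between groups are part of it. Control 3 was the highest library for 7 of the 10 genes, control 2 for *Egr2* and *Egr4*, and control 4 for *Bdnf*. The lowest was *Mphosph8*Δ/Δn library 3 for 4 genes, control 5 for 3, *Morc2a*Δ/Δn library 2 for 2 and *Mphosph8*Δ/Δn library 1 for 1. Summed over the 10 genes, controls 1 to 3 held 1227, 1417 and 1690 CPM and controls 4 and 5 held 954 and 795 CPM. The *Mphosph8*Δ/Δn libraries held 975, 1006 and 615 CPM and the *Morc2a*Δ/Δn libraries 865 and 985 CPM, so the 3 controls of the *Mphosph8* line exceeded the other 7 libraries.

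The loss of MPP8 was first compared with all 5 controls. All 10 genes had log2 fold changes below 0, between -0.80 for *Fosb* and -0.25 for *Homer1*, with a median of -0.55 against -0.01 over all genes. A gene was called where its adjusted p was under 0.05 and it changed more than 2-fold, which held by edgeR for 0 of the 10 and for 0.0969% of all genes tested (18 genes). DESeq2 and limma-voom called 0 of the 10 too, against 0.232% and 0.102% of all genes. Of the 10, 2, *Arc* and *Egr1*, had an unadjusted p below 0.05 by edgeR, as did 5.67% of all genes. That number was 6 without control 5 and 0 without *Mphosph8*Δ/Δn library 3. It was between 1 and 3 with any other control or *Mphosph8*Δ/Δn library left out. The change was -0.73 (SE 0.32, adjusted p = 0.872) for *Arc* and -0.56 (SE 0.20, adjusted p = 0.792) for *Egr1*, by edgeR. For none of the 10 did the 3 *Mphosph8*Δ/Δn libraries lie below all 5 controls, which held for 2.26% of all genes. The median depended on single libraries, at -0.31 without *Mphosph8*Δ/Δn library 3 and -0.35 without control 3.

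Set against the 3 controls of their own floxed line, the *Mphosph8*Δ/Δn libraries were further apart. The log2 fold change was -1.12 (SE 0.23, adjusted p = 0.114 by edgeR) for *Arc*, with mean levels of 502 ± 129 CPM in these controls and 231 ± 70.2 CPM in the knockout (SD, n = 3 each), which did not pass the threshold. For *Egr1* it was -0.81 (SE 0.16, adjusted p = 0.0925 by edgeR), with means of 253 ± 33.2 and 145 ± 28.1 CPM. *Fosb* was at -1.27, *Egr2* at -1.03, *Npas4* at -0.86, *Fos* at -0.83, *Nr4a1* at -0.78 and *Egr4* at -0.73, and *Bdnf* and *Homer1* were at -0.35 and -0.29. Again 0 of the 10 were called by edgeR, against 0.0538% of all genes (10 genes), while 8 had an unadjusted p below 0.05, against 5.54% of all genes. All these 8 were lower in the knockout, as were 2.69% of all genes at that p. The number was 4 without control 3 and 4 without *Mphosph8*Δ/Δn library 3, and between 6 and 9 with any other library left out. The 3 knockout libraries lay below the 3 controls for 7 of the 10 genes, all but *Fos*, *Egr4* and *Homer1*, and for 6.61% of all genes. That number was between 7 and 9 with any of the 6 libraries left out, when it was between 10.4% and 13.8% of all genes. Other tools gave other calls: limma-voom called *Arc* (adjusted p = 0.0315), against 0.0754% of all genes, edgeR without a filter on low counts called it too, against 0.198%, and DESeq2, which called 0.167% of all genes, gave *Egr1* an adjusted p of 0.000898 at a change below 2-fold and called 0 of the 10. The median of the 10 was -0.82, and -0.59 without *Mphosph8*Δ/Δn library 3.

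The *Morc2a*Δ/Δn libraries gave a different picture in each of their comparisons. Against all 5 controls, all 10 genes were below 0, with a median of -0.57, from -0.87 for *Egr2* to -0.06 for *Npas4*. None of the 10 was called by edgeR, DESeq2 or limma-voom, and edgeR called 0.0592% of all genes (11 genes). An unadjusted p below 0.05 was reached by *Egr1* (log2 fold change -0.79, SE 0.24, adjusted p = 0.227 by edgeR) and *Bdnf* (-0.56), and by 10.7% of all genes. These were also the 2 genes whose *Morc2a*Δ/Δn libraries lay below all 5 controls, as 7.80% of all genes did. With 1 control left out, between 1 and 5 of the 10 had an unadjusted p below 0.05 by edgeR, 5 of them without control 5. DESeq2 gave *Egr1* an adjusted p of 0.0200, below a 2-fold change. The median was -0.38 without control 3 and -0.37 without *Morc2a*Δ/Δn library 1. Against the 2 controls of their own floxed line, 5 of the 10 genes were below 0 and 5 above, with a median of 0.01. With a library left out the median was between -0.17 (without control 5, 7 of the 10 below 0) and 0.46 (without control 4, 4 below 0). *Nr4a1* was at 0.70 (SE 0.35, adjusted p = 0.581) and *Arc* at 0.54 (SE 0.28, adjusted p = 0.594), both by edgeR, and *Bdnf* was lowest at -0.49. Called genes were 0 of the 10 by edgeR, DESeq2 and limma-voom, and 0.0538% of all genes by edgeR. Of the 10, 0 had an unadjusted p below 0.05 by edgeR, which 9.08% of all genes had. That number was 2 without *Mphosph8*Δ/Δn library 3, which is not in this comparison. Leaving out a library of either group leaves 1 in it, so no count at that p is given for those fits. The 0 is thus not shown to hold in them. The 2 knockout libraries lay below both controls for *Egr1*, *Bdnf* and *Homer1*, as for 17.9% of all genes, and above both for *Nr4a1*, as for 18.1%. With 2 libraries in each group, the 95% confidence interval of *Arc* reached from -0.05 to 1.13 and that of *Fos* from -0.76 to 0.60, so a 2-fold higher level of *Arc* lay within its interval.

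**Figure D2:**
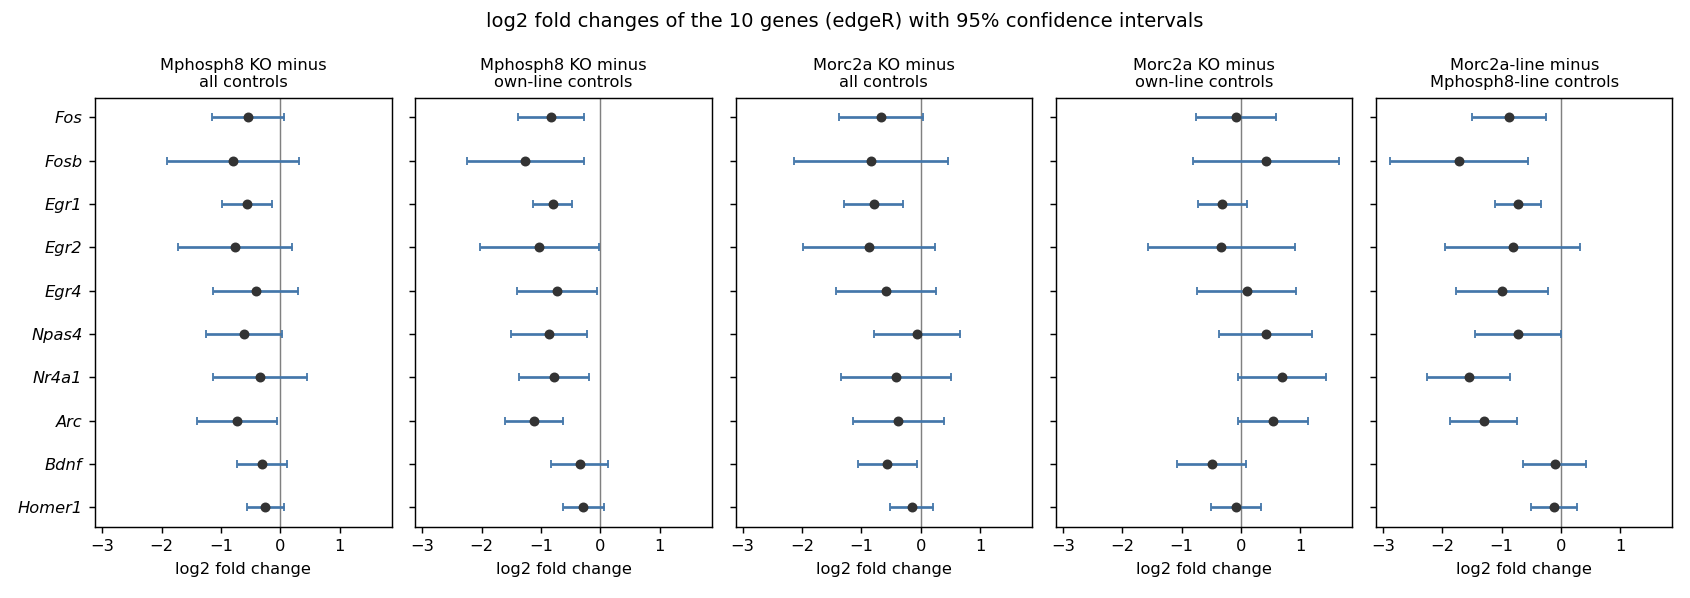
log2 fold changes of the 10 genes (points) with 95% confidence intervals (bars) from edgeR in 5 comparisons: each knockout against all 5 controls, then against own-line controls, and controls of the *Morc2a* line against those of the *Mphosph8* line. The points of *Arc* are at -0.73, -1.12, -0.37, 0.54 and -1.31 in that order, and those of *Homer1* stay between -0.29 and -0.08. The comparisons share libraries.

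The comparators themselves differed. Controls of the *Morc2a* line, compared with those of the *Mphosph8* line, neither of which carried a deletion, had log2 differences below 0 for all 10 genes, with a median of -0.85 against -0.003 over all genes. *Nr4a1* differed by -1.56 (SE 0.33, adjusted p = 0.0715) and *Arc* by -1.31 (SE 0.27, adjusted p = 0.0581), both by edgeR. The mean level of *Nr4a1* was 14.5 ± 3.95 CPM (SD, n = 2) in the *Morc2a* line and 43.0 ± 5.07 CPM (n = 3) in the *Mphosph8* line, and that of *Arc* was 202 ± 65.3 and 502 ± 129 CPM. *Fosb* was at -1.72, *Egr4* at -1.0, *Fos* at -0.88, *Egr2* at -0.81, *Egr1* at -0.73 and *Npas4* at -0.72, and *Bdnf* and *Homer1* were both at -0.11, within their SE of 0.25 and 0.18. By edgeR 0 of the 10 were called, against 0.129% of all genes (24 genes), and 6 had an unadjusted p below 0.05, against 9.21% of all genes. All 6 were lower, as were 4.95% of all genes at that p. The number was between 5 and 7 with a library of the *Mphosph8* line left out, at 5 without control 2. Leaving out control 4 or control 5 leaves 1 library in that group, so no count at that p is given and the 6 are not shown to hold there. The other tools placed *Arc* and *Nr4a1* past the threshold: DESeq2 called both (adjusted p = 0.0402 and 0.00168), against 0.517% of all genes (96 genes), and limma-voom called *Arc* (adjusted p = 0.0436), against 0.0754% of all genes. Without a filter on low counts edgeR called 3 of the 10, *Fosb* among them, against 0.499% of 30885 genes. The edgeR fit also called 2 of the 10 when *Mphosph8*Δ/Δn library 3, *Morc2a*Δ/Δn library 1 or *Morc2a*Δ/Δn library 2, none of them in this comparison, was left out, against 0.218%, 0.217% and 0.211% of all genes. The 2 lines did not overlap for 6 of the 10 genes, *Fos*, *Fosb*, *Egr1*, *Egr2*, *Arc* and *Nr4a1*, all lower in the *Morc2a* line, as 15.1% of all genes were. The size of the difference rested on both *Morc2a*-line controls, with a median of -1.26 without control 4 and -0.67 without control 5. Line, litter and the handling of the mice cannot be told apart in this comparison.

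Whether the 2 knockouts differed in their change from own-line controls was tested as an interaction. The *Morc2a*Δ/Δn change exceeded the *Mphosph8*Δ/Δn change by a median of 0.79 on the log2 scale, above 0 for 9 of the 10 genes. That median was 0.56 without *Mphosph8*Δ/Δn library 3 and 1.24 without control 4. The difference was largest in relation to its error for *Arc*, at 1.66 (SE 0.36, adjusted p = 0.208), followed by *Nr4a1* at 1.48 (SE 0.45, adjusted p = 0.417), both by edgeR. No gene of all 18573 was called by edgeR or limma-voom, while DESeq2 called 45 genes (0.242%), 0 of them among the 10, and edgeR without a filter on low counts called *Arc*, against 0.275% of all genes. An unadjusted p below 0.05 was reached by 4 of the 10, *Fosb*, *Arc*, *Npas4* and *Nr4a1*, and by 7.95% of all genes. This number was between 2 and 7 with a library of the *Mphosph8* line left out, at 2 without control 3 and at 7 without control 1. Leaving out a library of the *Morc2a* line leaves 1 in its group, so no count at that p is given there. The interaction uses the same control libraries as the comparison between the lines.

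The other genes of the response were described by lists of 36 rapidly induced genes, 24 late-response genes and 24 genes of the upstream pathway, none of which had a called member in any comparison by edgeR. Of the 36 rapidly induced genes, 29 were lower in the *Morc2a*-line controls, with a median of -0.57, against 50.3% of all genes. Of the 36, 15 were lower at an unadjusted p below 0.05, as were 4.95% of all genes. The 3 most abundant were *Dusp14*, a phosphatase, *Per1*, a clock gene that is also induced by CREB, and *Fbxo33*, an F-box protein, at -0.91, -0.73 and -0.47. *Egr3*, the fourth EGR factor, named here for its value, was at -1.23 (SE 0.25, adjusted p = 0.0581 by edgeR) between the lines, and at 53.9, 64.0 and 76.6 CPM in controls 1 to 3 against 31.9 and 23.2 CPM in controls 4 and 5. Against own-line controls, 27 of the 36 were below 0 in *Mphosph8*Δ/Δn, with a median of -0.38, whereas 13 were below 0 in *Morc2a*Δ/Δn, where the median was 0.13. *Dusp14* was at -0.96 (adjusted p = 0.0801 by edgeR) in the first of these.

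The genes listed as late-response had smaller medians, of -0.23 between the control lines, -0.11 in *Mphosph8*Δ/Δn and, for *Morc2a* knockouts, -0.02 against own-line controls. Their 3 most abundant members were *Scg2*, the precursor of secretoneurin, *Syt4*, a synaptotagmin, and *Rasgrp1*, a Ras activator, at -0.24, -0.12 and -0.21 between the lines. The upstream genes had medians of -0.16, -0.13 and -0.06 in the same comparisons. The AMPA receptor subunit *Gria2*, the calcineurin subunit *Ppp3ca* and the NMDA receptor subunit *Grin2b*, the most abundant of that list, were at 0.15, 0.04 and -0.32 between the lines. An exception, chosen after its value was seen, was *Srf*, the factor that binds the CArG box, which was at 28.8, 35.6 and 29.4 CPM in controls 1 to 3 and at 12.4 and 11.6 CPM in controls 4 and 5. That is a log2 difference of -1.38 (SE 0.29, adjusted p = 0.0681 by edgeR), and both knockouts lay between the lines, at 14.3 to 21.8 CPM.

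**Figure D3:**
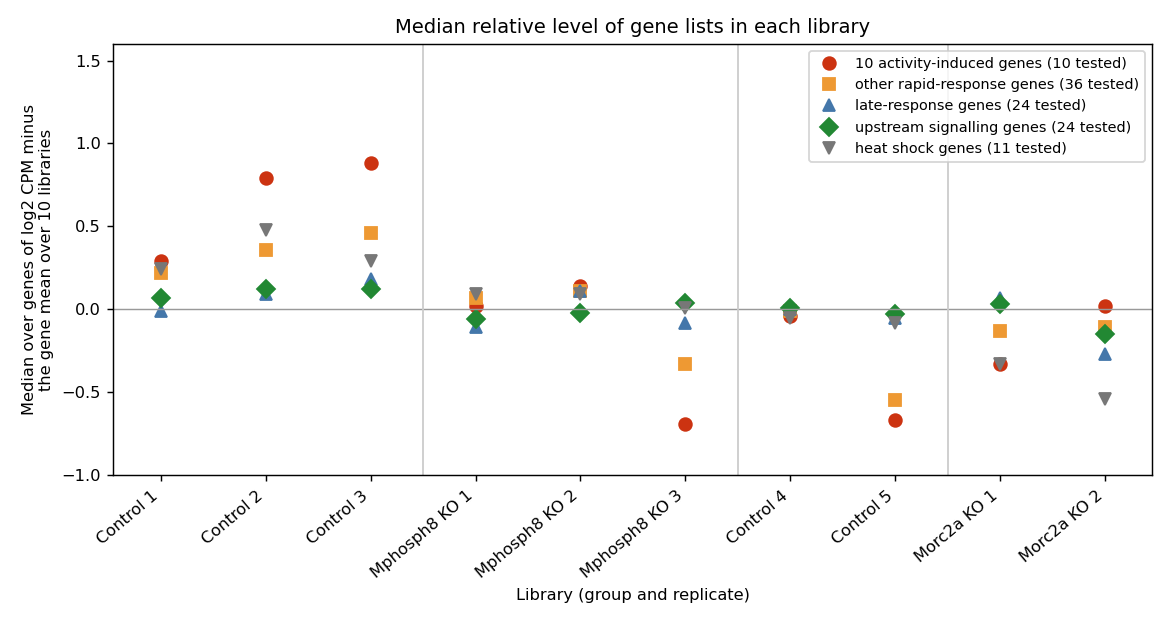
For each library, the median over the genes of a list of the log2 CPM minus that gene's mean over the 10 libraries, for the 10 activity-induced genes, 36 other rapid-response genes, 24 late-response genes, 24 upstream genes and 11 heat shock genes. The 10 genes range from 0.88 in control 3 to -0.69 in *Mphosph8*Δ/Δn library 3, the other rapid-response genes range from 0.46 in control 3 to -0.55 in control 5, and the late and upstream lists stay between -0.27 and 0.18.

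The genes whose pattern over the 10 libraries was most like that of the 10, by Pearson correlation with their mean standardized log2 level, were *Cdkn1a* (r = 0.97), *Mei4* (0.92), *Cmtm6* (0.92), *Btg2* (0.91), *Ptpn1* (0.89), *Arid3b* (0.88), *Rtn4r* (0.88), *Pou2f1* (0.88), *Fosl2* (0.88) and *Gm45708* (0.88). They were selected for this pattern, so their values are a description. *Btg2* and *Fosl2* belonged to the list of rapidly induced genes and *Cdkn1a*, which encodes the cell cycle inhibitor p21, to the late-response genes. *Cdkn1a* differed by -1.02 between the control lines (SE 0.43, adjusted p = 0.458 by edgeR). By rank correlation, 4 of these 10 genes would have been named.

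**Figure D4:**
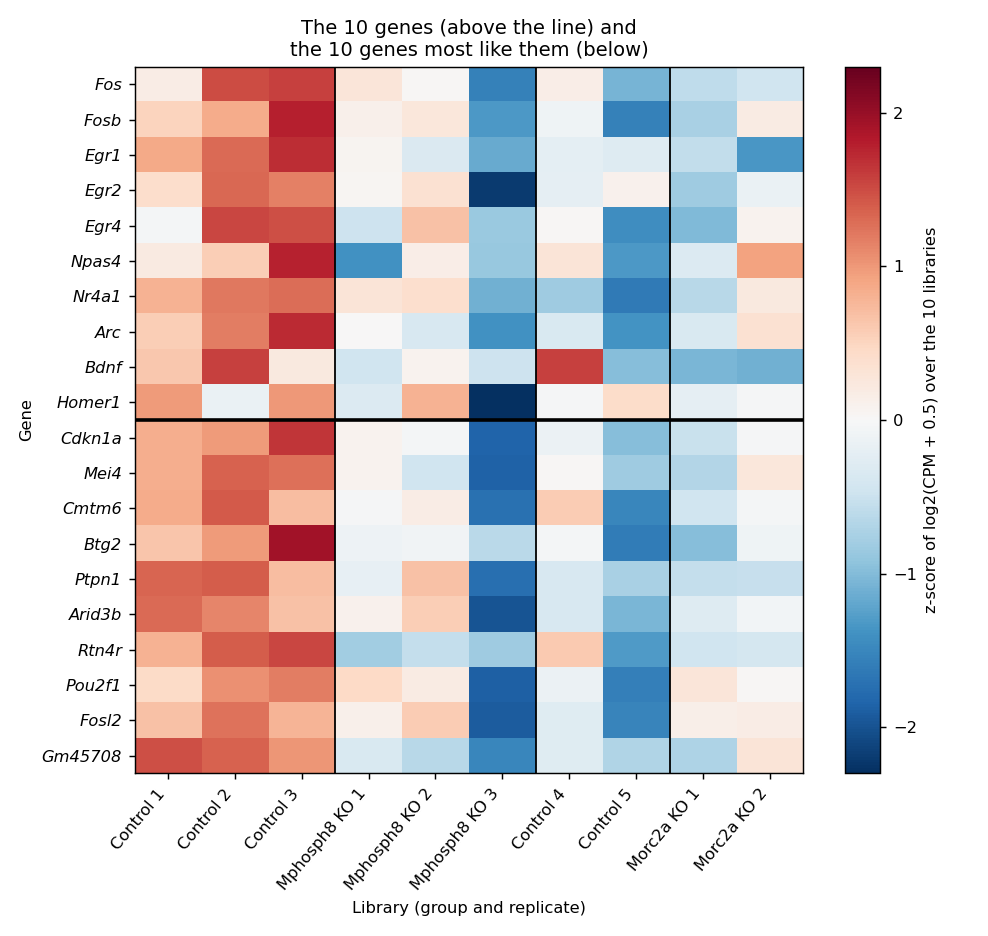
Standardized log2(CPM + 0.5) of the 10 activity-induced genes (above the line) and of the 10 genes most like them (below), one column per library, grouped by floxed line and genotype. Controls 1 to 3 are mostly red (above the mean of the gene), with 7 of the 10 genes highest in control 3, and *Mphosph8*Δ/Δn library 3 and control 5 are mostly blue.

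Other features of the libraries varied beside the 10 genes. The heat shock genes, a list of 12 of which 11 were tested, summed to 1849, 2169 and 1938 CPM in controls 1 to 3 and to 1602 and 1550 CPM in controls 4 and 5. The 3 *Mphosph8*Δ/Δn libraries held 1739, 1697 and 1573 CPM, and the 2 *Morc2a* knockouts held 1265 and 1109 CPM. All 11 were below 0 between the control lines (median -0.32), as in *Morc2a*Δ/Δn against all controls (median -0.62), where *Hsp90ab1*, the most abundant, had a log2 fold change of -0.83 with an adjusted p of 0.0294 by edgeR, below the 2-fold limit. *Hsp90ab1*, *Hspa5* and *Hsph1*, the 3 most abundant, were at -0.25, -0.62 and -0.31 between the lines. *Hspb1* was the member with no count in 1 library. The part of the heat shock genes in the result was not tested.

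Markers of cerebellar granule neurons, 9 genes of which 8 were tested, summed to 570 CPM in control 4, 333 and 503 CPM in *Mphosph8*Δ/Δn libraries 1 and 2, and between 82.8 and 131 CPM in the other 7 libraries. Their most abundant gene was *Cbln1*, at 39.2 CPM on average, followed by *Zic1* at 38.0 and *Etv1* at 34.7 CPM, and *Gabra6*, the receptor subunit that defines granule neurons, was at 104 CPM in control 4 and at 0 counts in *Morc2a*Δ/Δn library 2, where 3 counts would be 0.308 CPM. *Zic2*, the member not tested, had no count in 7 libraries. Controls 4 and 5, which were both low for *Arc* and *Nr4a1*, differed in these markers, at 570 and 97.0 CPM, and their part in the result was not tested. Over the 8 tested markers, the median log2 difference was 1.44 in the *Morc2a*-line controls relative to the *Mphosph8*-line controls, with 5 higher at an unadjusted p below 0.05. Against own-line controls the median was 1.48 in *Mphosph8*Δ/Δn, with 6 higher at that p, and -1.52 in *Morc2a*Δ/Δn, with 6 lower, and the difference between these contrasts had a median of -3.00, with 6 lower. These p-values were reached by 9.21%, 5.54%, 9.08% and 7.95% of all genes in the 4 comparisons. Between the lines *Barhl1*, at -0.66, was the 1 marker below 0, and control 5, at 97.0 CPM, lay within the controls of the *Mphosph8* line, at 84.4 to 125 CPM. The markers of forebrain excitatory neurons summed to between 256 and 335 CPM over the 10 libraries and those of inhibitory neurons to between 1231 and 1995 CPM, lowest in *Morc2a*Δ/Δn library 2. *Neurod2*, *Bcl11b* and *Tbr1*, the most abundant of the first, were at 0.16, -0.34 and 0.35 between the control lines, and *Gad1*, *Sst* and *Gad2*, of the second, at -0.26, -0.16 and -0.37. Astrocyte markers summed to between 737 and 1073 CPM and oligodendrocyte markers to between 555 and 987 CPM, with *Slc1a2*, *Aldoc* and *Slc1a3* among the first and *Mbp* and *Cnp* among the second, and in both lists the controls of each line overlapped. Pan-neuronal markers, led by *Snap25*, *Syt1* and *Eno2*, summed to 5046 and 4391 CPM in *Morc2a*Δ/Δn, the 2 lowest libraries, and to between 5431 and 6327 CPM in the others. In *Morc2a*Δ/Δn against all controls, 7 of these 10 markers were below 0, with a median log2 fold change of -0.32. At an unadjusted p below 0.05, which 10.7% of all genes reached in either direction, 5 were lower and 1, *Map2*, was higher, at 0.33. *Snap25*, among the lower, was at -0.47 (SE 0.09, adjusted p = 0.0528 by edgeR). The inhibitory markers were below 0 for 8 of 8, with a median of -0.40 and 3 lower at that p. Striatal markers, led by *Penk*, *Pde10a* and *Ppp1r1b*, summed to 1540, 1893 and 1914 CPM in *Mphosph8*Δ/Δn and to 2039 and 1612 CPM in *Morc2a*Δ/Δn, all below the 5 controls, at 2157 to 2351 CPM. In *Mphosph8*Δ/Δn all 8 tested striatal markers were below 0, with a median of -0.25 against all controls and -0.27 against own-line controls, and *Pde10a* was at -0.53 (SE 0.11, adjusted p = 0.0853 by edgeR) in the first. The part of these neuronal markers in the values of the 10 genes was not tested. Midbrain and hindbrain markers, led by *Slc17a6*, *Th* and *Slc6a3*, summed to between 137 and 240 CPM. They were lowest in *Morc2a*Δ/Δn, at 149 and 137 CPM, against 180 to 240 CPM in the other libraries. Against all controls 5 of the 8 tested were below 0 there, with a median of -0.24. *Slc17a6* was at -0.75 (SE 0.15, adjusted p = 0.0652 by edgeR), and at -0.62 against own-line controls. The part of these and of the oligodendrocyte markers in the values of the 10 genes was not tested. Markers of oligodendrocyte precursors, led by *Olig1*, *Sox10* and *Olig2*, summed to between 47.6 and 91.8 CPM and those of endothelial cells, led by *Vtn*, *Tek* and *Flt1*, to between 7.34 and 29.8 CPM. No gene of these lists was called by edgeR in any of the 6 comparisons. In RNA of sorted nuclei from whole brains, fewer nuclei of a responding type and less RNA per nucleus cannot be told apart.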

How the data were processed

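Poly(A) RNA of sorted NeuN+ nuclei was sequenced as single 50-base reads. The authors trimmed them with Trim Galore 0.5.0, removed abundant sequences with Bowtie2 2.3.4.1, aligned with STAR to GRCm38 and counted genes of Ensembl release 94 with featureCounts (Subread 1.6.2). The deposited values are raw read counts; the strand setting is not given in the sources used here. Symbols and positions came from GENCODE M21 (54495 of 54532 identifiers matched), promoters from RefSeq (GRCm38.p6).

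Counts were analysed with edgeR 4.0.16 in R 4.3.3: filterByExpr kept 18573 genes, and quasi-likelihood fits had 3 groups, or 4 with the control lines apart. P-values were adjusted by Benjamini-Hochberg over all genes, and a gene was called where the adjusted p was under 0.05 and the change more than 2-fold. DESeq2 1.42.0 and limma 3.58.1 were alternatives, with other filters, scalings, controls and single libraries left out. The biological coefficient of variation was 0.375, and replicates differed by more than counting error (chi-square per degree of freedom 9.55 to 38.4). The 10 genes and all lists were chosen with earlier results of these data known. Genes named are the 10, the called or else the 3 most abundant members of each other list, the targeted genes, *Rbfox3* and the 10 most alike; others were chosen after their values were seen, and 1 list of cell type markers and 1 member of another are not reported here.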

Additional observations from a re-analysis of the deposited data

How the results depend on the processing

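Of the alternative values of single genes among the 10, 190 of 190 kept direction and call in *Mphosph8*Δ/Δn against all controls. In *Morc2a*Δ/Δn, 182 of 190 did. In both of these comparisons an adjusted p under 0.05 was reached at a change below 2-fold, which was not a call. With controls of the same floxed line the *Morc2a*Δ/Δn median moved to 0.01, and *Fosb* (0.42), *Egr4* (0.10), *Arc* (0.54), *Npas4* (0.42) and *Nr4a1* (0.70) turned above 0. Leaving out a library turned *Npas4* in *Morc2a*Δ/Δn against all controls (-0.45 to 0.24), *Bdnf* between the control lines (-0.57 to 0.23), and *Bdnf* (-0.50 to 0.31) and *Homer1* (0.00 to 0.40) in the interaction. Against own-line controls it turned *Fos* (-0.40 to 0.31), *Fosb* (-0.13 to 1.35) and *Egr4* (-0.28 to 0.61) in *Morc2a*Δ/Δn. The cause was not tested.

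Calls among the 10 changed as follows. Between the control lines they were 3 without a filter on low counts (*Arc*, *Nr4a1*, *Fosb*), 2 with at least 10 counts in every library (against 0.172% of 13346 genes), 2 by DESeq2 and 1 by limma-voom, and 0 to 2 with a library left out. In the interaction 1 was called without a filter (*Arc*), and against own-line controls in *Mphosph8*Δ/Δn 1 was called without a filter and 1 by limma-voom (*Arc* in both). The own-line alternatives were added after the data had been seen.

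Genes called in all, without a filter on low counts and by DESeq2, were 87 and 43 in *Mphosph8*Δ/Δn and 98 and 27 in *Morc2a*Δ/Δn against all controls, 154 and 96 between the lines, 85 and 45 in the interaction, and 61 and 31 in *Mphosph8*Δ/Δn and 75 and 73 in *Morc2a*Δ/Δn against own-line controls. limma-voom called 14 genes between the lines and 2 in *Morc2a*Δ/Δn against own-line controls. With own-line controls, 10 genes were called in either knockout. With at least 10 counts in every library, 24 were called in *Morc2a*Δ/Δn, and with its groups alone 6. With a library left out, calls ranged from 6 to 21 in *Mphosph8*Δ/Δn, 3 to 26 in *Morc2a*Δ/Δn, 11 to 44 between the lines and 0 to 7 in the interaction, and against own-line controls from 4 to 13 and from 4 to 15. By rank correlation, 4 of the 10 most alike genes were kept.

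The replicate numbers were treated as names only, since residuals of same-numbered libraries correlated at -0.0275 to 0.0428 (7 pairs) and others at -0.0552 to 0.0406 (24 pairs). With the replicate number as a block, 46 genes (0.248%) were called in *Morc2a*Δ/Δn, 1 of them among the 10, *Egr1* (-1.08, adjusted p = 0.0431 by edgeR). In *Mphosph8*Δ/Δn, 12 genes were then called, 0 of them among the 10. The median of the 10 was then -0.96 in *Morc2a*Δ/Δn and -0.84 in *Mphosph8*Δ/Δn, with 8 of the 10 at an unadjusted p below 0.05 in each, against 12.1% and 5.19% of all genes. Controls 4 and 5 share their numbers with no other library, so the blocked fit compares *Morc2a*Δ/Δn with controls of the *Mphosph8* line. Against own-line controls *Egr1* was at -0.31 in *Morc2a*Δ/Δn.

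The spread between replicates exceeded counting error, and what greater depth or more libraries would change was not tested.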
